A study of Caenorhabditis elegans with 12 samples.

Results

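The histone methyltransferase MES-4 places methyl groups on lysine 36 of histone H3 along genes that germ cells transcribe, and the arrays described here compared hermaphrodite germlines that lack it with germlines that have it. The comparison was factorial. It set the 6 arrays of animals homozygous for *mes-4(ok2326)*, with *lin-54(+)* in the *mes-4* mutant and *lin-54(n3423)* in the double mutant, against the 6 arrays of animals with wild-type *mes-4*, which were wild type (N2) and the *lin-54(n3423)* mutant, with *lin-54* genotype as a covariate. All 12 arrays of the series took part, 3 biological replicates for each of 4 genotypes. Each sample was a pool of germlines from young adults 24 hr after the L4 stage, raised at 20 C and cut from the mitotic tip through late pachytene. By this protocol proximal oocytes and sperm would lie outside the dissected region. Transcripts of sperm genes nevertheless read higher on the arrays without LIN-54, as given below. The mutants were homozygotes from heterozygous mothers balanced by nT1, so they lacked zygotic gene product but had received maternal product (M+Z-), and wild type came from no balanced strain.

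In *C. elegans*, MES-4 is found along the autosomes and is nearly absent from most of the X chromosome, and loss of the MES proteins lowers repression of X-linked genes in the germline. The X chromosomes of germ cells are kept at low activity by a system that includes MES-2, MES-3 and MES-6, which methylate lysine 27 of histone H3. LIN-54 is a DNA-binding subunit of DRM, a complex of Dp, E2F, Retinoblastoma-like and MuvB proteins. Since 3 of the 6 arrays on each side of the comparison lacked LIN-54, the values below describe what loss of MES-4 changed on average over germlines with and without DRM function.

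The alleles could be read on the arrays to a different extent. The ok2326 deletion takes out much of the catalytic SET domain and shifts the reading frame, but a truncated transcript with a poly(A) tail persists according to the study's methods. One *mes-4* probe set read 9.82, 9.84 and 9.81 in wild type and 9.70, 9.77 and 9.76 in *lin-54*, compared with 9.22, 9.01 and 9.05 in *mes-4* and 9.65, 9.27 and 9.49 in the double mutant (log2 levels of single arrays). All 6 arrays without MES-4 lay below the 6 with it, and the log2 difference was -0.50 with a standard error (SE) of 0.09 (q = 0.00271, limma). The second *mes-4* probe set fell by 0.54 on the log2 scale (SE 0.10, q = 0.00371). The position of these probes relative to the deletion was not given in the sources used here, so their level does not check the allele. The large deletion n3423 was plain, with the *lin-54* probe set between 10.7 and 10.9 on the 6 arrays with *lin-54(+)* and at 6.40, 7.76, 6.32, 6.81, 6.65 and 6.33 on the 6 without it.

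The arrays held germline RNA throughout. The 8 germ cell markers *pgl-1*, *pgl-3*, *glh-1*, *gld-1*, *him-3*, *htp-3*, *syp-1* and *rec-8* read between 9.11 and 12.6 on all 12 arrays, on a scale whose values ran from 3.05 to 14.6. Correlations between arrays within a genotype were 0.989 to 0.996, and array medians lay between 5.81 and 5.93. Major sperm protein (MSP) genes, the abundant products of developing sperm, had a median of 6.28 to 6.65 on the wild-type and *mes-4* arrays but 7.13 to 10.2 on the *lin-54* and double-mutant arrays. It was above all other arrays on each of the 6 arrays without LIN-54 but ranged widely among them, from 7.13 to 10.1 in *lin-54* and from 7.70 to 10.2 in the double mutant, a spread that the *lin-54* term of the fit does not carry. With the MSP median of each array as a covariate, chosen after seeing the data, 512 X-linked and 562 autosomal genes rose and 38 and 1057 fell, compared with 506, 541, 43 and 925 without it. A total of 0 of 23 MSP genes were called for *mes-4* (limma, 0 also with the Benjamini-Hochberg adjustment and 0 with an unadjusted p under 0.05).

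Loss of MES-4 raised X-linked transcripts and lowered a wide set of autosomal transcripts by small amounts. With a gene called at q at or below 0.05, where q is the Storey false discovery rate over 22548 probe sets, 506 of 2355 X-linked genes rose (21.5%) and 43 fell (1.83%). On the autosomes 541 of 14722 genes rose (3.67%) and 925 fell (6.28%). Over all 17085 genes, 1047 rose (6.13%) and 968 fell (5.67%), 11.8% in either direction. In a sample of pooled dissected germlines, fewer cells of a type and less RNA per cell cannot be told apart, and this holds for every change given here.

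The balance of autosomal calls turned on how the arrays were centred. Rises made up 52.0% of all calls as given above, and 71.6% when each array was centred on its own autosomal median, where 435 autosomal and 12 X-linked genes fell. Within the autosomes the share of rises was 36.9% as given and 58.8% when centred. The rise of X-linked genes kept its share of 21.5% under that centring.

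**Figure D1:**
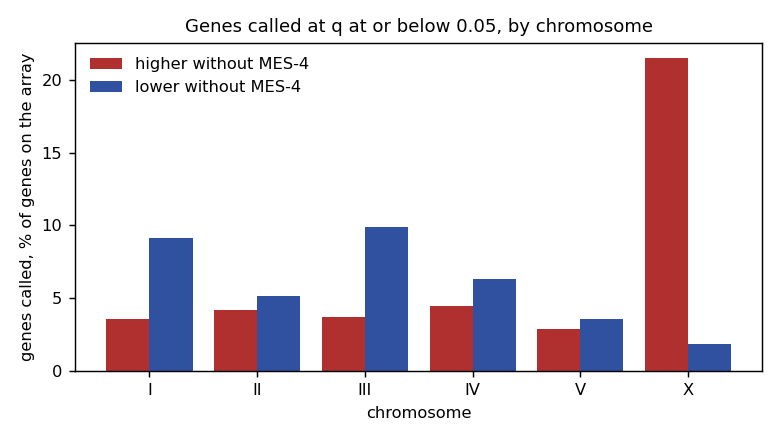
Percent of the genes on each chromosome that were called higher (red) or lower (blue) without MES-4 at q at or below 0.05 in the fit over 12 arrays. The X stands apart with 21.5% higher, compared with 2.87% (V) to 4.46% (IV) on the autosomes, and the bars for lower transcripts are tallest on III (9.85%) and I (9.11%).

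By chromosome, the share that rose was 3.56% (I), 4.18% (II), 3.73% (III), 4.46% (IV) and 2.87% (V). The share that fell ranged more widely, from 3.59% on V to 9.85% on III, and it was 1.83% on the X. The rises on the X were spread along its length, since each of 10 equal blocks of measured X-linked genes in map order held between 14.9% and 26.4% rising genes.

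The rises on the X were also the larger ones. The median log2 difference of the 506 X-linked genes was 0.89 (interquartile range 0.58 to 1.85), 239 of them changed by more than 2-fold, 110 by more than 4-fold and 19 by more than 8-fold. Of the 541 autosomal genes that rose, 43 passed 2-fold and 3 passed 4-fold, around a median of 0.46. Of the 925 that fell, 32 passed 2-fold and 5 passed 4-fold, and 266 changed by less than 1.2-fold, around a median of -0.32. The 43 X-linked genes that fell had a median of -0.23, and 0 of them passed 2-fold. The genes that fell on autosomes were well expressed, with a median level of 8.54 with MES-4 and 7.99 without it, compared with 6.59 and 7.68 for the X-linked genes that rose.

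All 6 arrays without MES-4 lay above the 6 with it for 207 X-linked genes (8.79%) and 118 autosomal genes (0.802%). They all lay below for 246 autosomal genes (1.67%) and 12 X-linked genes (0.51%).

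A single value per array set the level of the X against that of the autosomes. The median level of X-linked genes was below that of autosomal genes on every array, by -0.329 ± 0.019 in wild type, -0.384 ± 0.013 in *lin-54*, -0.240 ± 0.013 in *mes-4* and -0.311 ± 0.018 in the double mutant (X minus autosomes, log2, mean ± SD, n = 3 arrays each). Within each *lin-54* genotype the 3 arrays without MES-4 lay above the 3 with it, although double-mutant and wild-type arrays overlapped. The mean difference without MES-4 was 0.0815 (exact permutation of *mes-4* status within *lin-54* genotype, two-sided p = 0.005, the smallest that 400 assignments allow). The upper quartile of X-linked levels moved further, from 6.36 to 6.61 with *lin-54(+)* and from 6.29 to 6.45 with *lin-54(n3423)*, a mean difference of 0.203 (exact p = 0.005). The autosomal median differed by -0.0447 (exact p = 0.08), -0.0290 with *lin-54(+)* and -0.0603 with *lin-54(n3423)*, so part of the 0.0815 is a lower autosomal median. The X median itself read 5.44 to 5.55 in wild type and 5.52 to 5.64 in *mes-4*. It read 5.53 to 5.54 in *lin-54* and 5.52 to 5.58 in the double mutant, and both pairs overlapped.

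**Figure D2:**
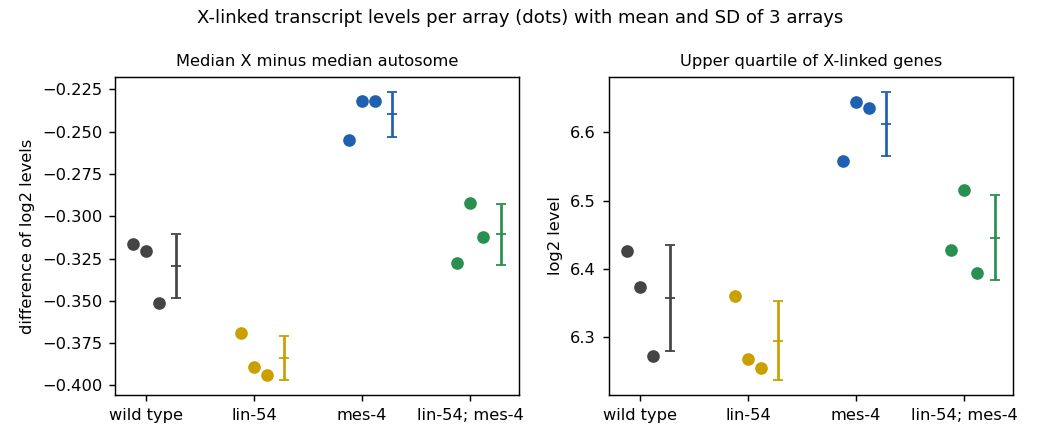
Each dot is 1 array. The left panel plots the median log2 level of X-linked genes minus that of autosomal genes, the right panel the upper quartile of X-linked log2 levels, with the mean and SD of the 3 arrays of a genotype beside the dots. In the left panel the *mes-4* arrays lie above wild type and the double-mutant arrays above *lin-54*, without overlap within either pair.

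The median X-linked gene hardly differed, and the share of genes called higher was larger at higher levels. The median log2 difference over all 2355 X-linked genes was -0.02, compared with -0.05 over autosomal genes. When genes were put in 4 equal classes by their mean level over the 12 arrays, 2.62% of X-linked genes rose in the lowest class, 9.02% in the second, 34.2% in the third and 87.7% in the highest, where 136 of 155 rose with a median log2 difference of 1.71. Since a rise itself lifts the mean, the classes were also set by the level on the 6 arrays with MES-4. The shares were then 4.26%, 13.8%, 36.1% and 71.8%, the last being 56 of 78 genes with a median of 0.89. Signal over background was not measured, so its part in the low shares of the lower classes was not tested. On autosomes the share that fell rose with level as well, from 1.47% in the lowest class over 12 arrays to 11.8% in the highest.

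The largest X-linked rises were picked from the calls with separate arrays in each *lin-54* genotype, so that separation was set by the choice. The large ribosomal subunit protein gene *rpl-11.2* had the largest rise. It read 9.47, 9.17 and 9.34 in wild type and 10.87, 9.85 and 9.43 in *lin-54*, compared with 12.72, 13.61 and 13.67 in *mes-4* and 13.05, 13.82 and 13.61 in the double mutant. The lowest array without MES-4 was thus above the highest with it, and the difference of 3.72 (SE 0.25, q = 9.27e-07) is 13.2-fold. The X-linked gene for a core subunit of respiratory complex III, *ucr-2.1*, rose from 8.29, 7.80 and 7.88 in wild type and 8.15, 7.55 and 7.35 in *lin-54* to 10.84, 11.77 and 12.06 in *mes-4* and 10.80, 12.01 and 11.46 in the double mutant. The groups did not overlap, and the difference was 3.65 (SE 0.24, q = 7.11e-07). The complex I subunit *gas-1* rose by 3.52 (SE 0.17, q = 7.68e-08), from between 7.82 and 8.52 on the 6 arrays with MES-4 to between 11.12 and 12.12 on the 6 without. The tethering factor *vps-52*, which acts in traffic between endosomes and the Golgi, rose by 3.52 (SE 0.15, q = 7.14e-08) from between 5.69 and 6.91 to between 9.59 and 10.20.

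The other 6 of the 10 largest X-linked rises had log2 differences of 3.27 to 3.54. They were F20D1.3, the kynurenine aminotransferase gene *nkat-3*, the translation elongation factor gene *eef-1A.2*, *flwr-1* (the Flower protein of synaptic vesicle membranes), the mitochondrial fission gene *fis-2* and *emre-1*, a regulator of the mitochondrial calcium uniporter. Their levels on the 6 arrays with MES-4 ranged from 5.38 (*emre-1*) to 9.07 (F20D1.3). The SE was largest for *eef-1A.2* (0.39), whose double-mutant arrays read 10.35, 12.28 and 11.12. Its difference was 1.42 when averaged over its probe sets, and its call was lost when probe sets shared between transcripts were left out. All 10 genes kept their calls when any 1 of the 12 arrays was left out.

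**Figure D3:**
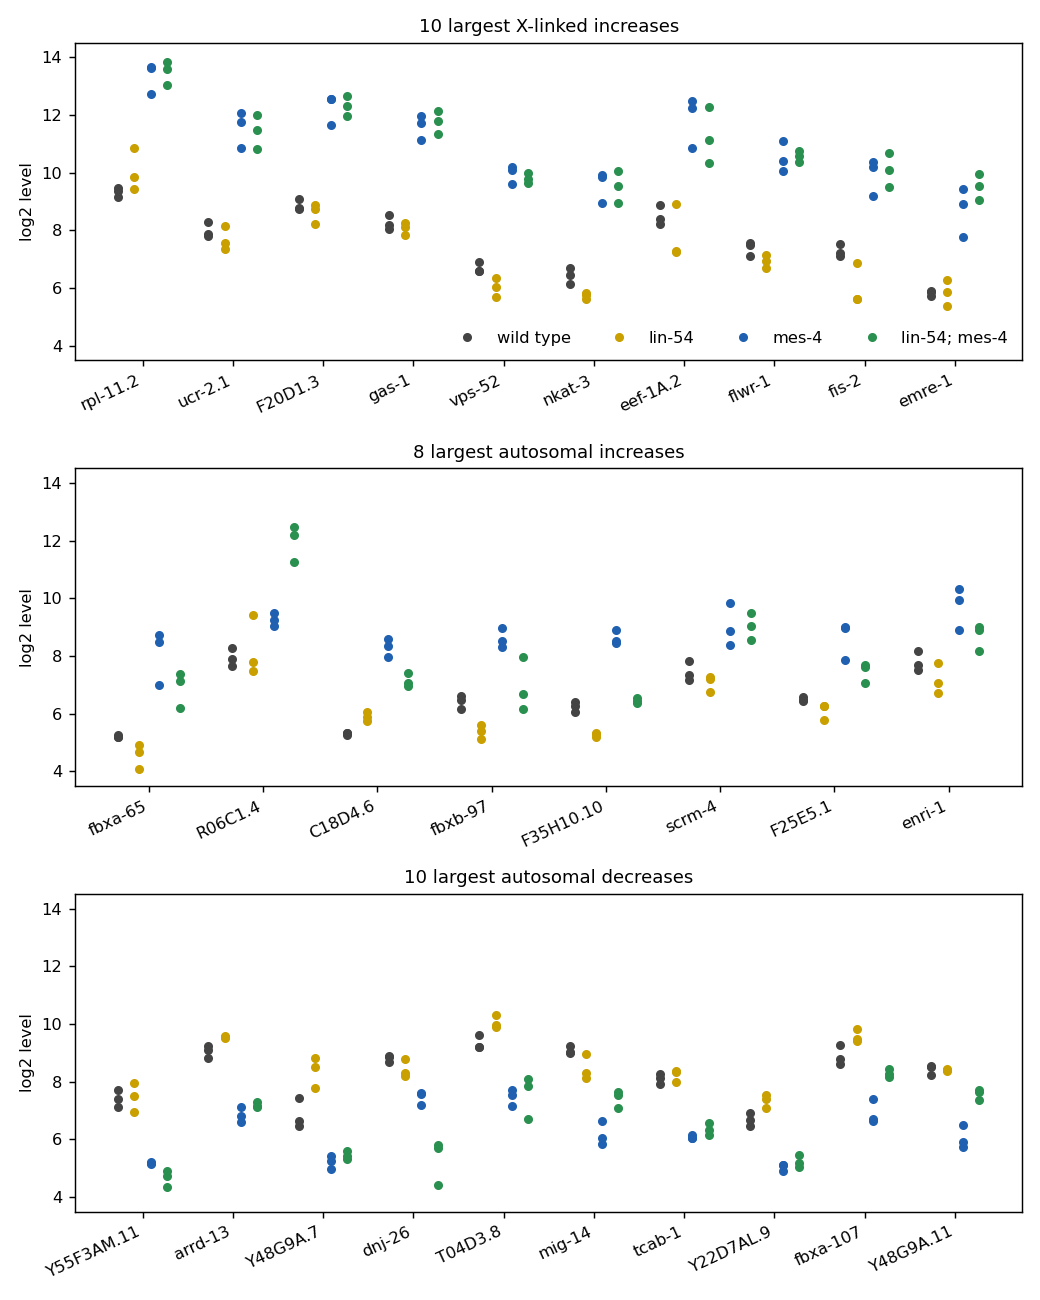
Log2 level of each array (dots) for the 10 X-linked genes and 8 autosomal genes with the largest increases and the 10 autosomal genes with the largest decreases without MES-4, with 1 color per genotype. Genes were picked from the calls whose arrays did not overlap within either *lin-54* genotype, so that separation was set by the choice. The *mes-4* and double-mutant dots lie above the others for all 10 X-linked genes and below the others for the 10 decreases, while R06C1.4 and other autosomal increases differ between the *mes-4* and double-mutant arrays.

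Some neighbors on the X rose together. Runs of at least 3 adjacent measured genes that were all called higher numbered 31 on the X and held 114 of its 506 rising genes (22.5%), and the longest held 7 genes. No test of clustering was made, and with 21.5% of X-linked genes rising some runs arise without it. One run of 7 held *gas-1*, *usp-33*, *ent-2*, *rab-14*, *nipi-3*, K09E9.3 and *ergi-3*, with differences between 0.64 and 3.52. Another run of 7 held F38B2.4, the innexin gene *inx-2*, *snrp-40.1*, F08G12.3, F08G12.1, the von Hippel-Lindau homolog *vhl-1* and F08G12.5, with differences from 0.28 to 2.62. A run of 5 held *rgs-11*, *flwr-1*, *tbc-1*, F20D1.3 and *emre-1*, of which 4 rose by more than 3 on the log2 scale. The ONECUT homeobox genes *ceh-41* (1.85, q = 0.00107), *ceh-21* (2.04, q = 2.55e-05) and *ceh-39* (1.67, q = 5.13e-05), which lie side by side with T26C11.4, formed a run of 4. Some probe sets are shared between transcripts, so genes of a run are not independent measurements.

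Autosomes had 2 runs of rising genes with 6 genes in all, and 17 runs of falling genes with 54 genes, none longer than 4. One of the rising runs was F25H9.2, *bath-39* and *frm-10* on chromosome V. Among the 25 measured genes on each side of *mes-4* itself, 4 of 50 rose (8%) and 2 fell (4%), compared with 2.87% and 3.59% of all 4317 measured genes of the chromosome. Chromosome V near *mes-4* came from the mutant strain in all 6 arrays without MES-4, so a linked difference of that strain and loss of MES-4 cannot be told apart there.

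Groups of genes with basic roles in every cell showed how far the response followed the chromosome. In 7 lists for metabolism, translation and secretion, 33 of 35 X-linked members rose (94.3%, median 1.82), whereas of 241 autosomal members 9 rose and 10 fell (median 0.00). The X-linked members had a median level of 6.81 with MES-4 and the autosomal ones 11.6. The background for X-linked rises was 21.5%. By level with MES-4 it was 36.1% in the third class, which holds the median of 6.81, and 71.8% in the highest class. The lists were chosen with earlier results of these data known. The X-linked members that were not called were *vps-45* (0.20, q = 0.236) and the sorting nexin gene *snx-1* (1.05, q = 0.0503).

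Of 41 genes of the respiratory chain and ATP synthase, 6 rose and 0 fell (limma, 6 also called with the Benjamini-Hochberg adjustment, and 1 lower at an unadjusted p under 0.05), and the 6 were the X-linked ones. Besides *gas-1* and *ucr-2.1* they were *ucr-2.2* of complex III (3.09, SE 0.37, q = 1.43e-04), the ATP synthase genes *asb-2* (2.85, q = 1.96e-04) and *asg-2* (2.45, SE 0.31, q = 1.87e-04), and the complex II flavoprotein gene *sdha-1* (2.72, SE 0.27, q = 3.32e-05). In *ucr-2.2* the *mes-4* arrays read 7.64, 9.20 and 9.47 and the double-mutant arrays 9.42, 11.14 and 10.09, all above the 6.07 to 6.97 of the arrays with MES-4. The probe sets of *sdha-1* differed, with a mean difference of 1.46. Averaging over probe sets also gave a value more than 1.5 times smaller for *pab-2* (0.69), *alg-1* (0.45), *ceh-21* (1.21), *ceh-41* (1.16) and Y22D7AL.9 (-1.04), and for *xol-1* (0.28), which was then not called.

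Of 24 genes of the TCA cycle and pyruvate dehydrogenase, all 5 X-linked members and 2 autosomal members rose and 1 fell. The mitochondrial isocitrate dehydrogenase gene *idh-2* rose by 2.88 (SE 0.35, q = 1.61e-04), and the succinyl-CoA synthetase genes *suca-1* and *sucl-1* rose by 2.46 (SE 0.18) and 1.93 (SE 0.25). The aconitase gene *aco-1* rose by 1.87 (SE 0.24) and *idhb-1* by 1.68 (SE 0.24). The autosomal rises, *fum-1* (0.31) and *idhg-2* (0.28), were smaller, and *idh-1* fell by 0.34. Among 24 genes of mitochondrial dynamics and import, 3 rose and they were X-linked, namely *fis-2*, the cristae organizer *immt-1* (1.42, SE 0.23, q = 0.00137) and the fission factor *mff-1* (0.85, SE 0.24, q = 0.029), whose call was lost when any 1 of 7 arrays was left out.

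Of 75 cytosolic ribosomal protein genes 2 are X-linked and both rose, *rpl-11.2* as above and *rpl-23A.1* by 1.00 (SE 0.23, q = 0.0109). Of the autosomal others 1 rose and 2 fell, by 0.33 at most. All 4 X-linked translation factor genes of 32 rose, which were *eef-1A.2*, the cap-binding genes *ife-2* (2.10, SE 0.44, q = 0.00649) and *ife-4* (0.52, q = 0.034), and the poly(A)-binding gene *pab-2* (1.13, SE 0.21, q = 0.0029), while 3 autosomal ones fell. In *ife-2* the arrays without MES-4 read 7.79, 9.86 and 9.97 in *mes-4* and 7.26, 9.77 and 8.26 in the double mutant, and those with it 5.74 to 7.23, so the groups were apart by a narrow margin.

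Vesicle trafficking genes gave 7 X-linked rises of 9, 1 autosomal rise and 3 autosomal decreases of 54 in all. The X-linked ones included *vps-52*, the lysosomal tethering gene *vps-41* (2.93, SE 0.16, q = 1.60e-07), the clathrin adaptor gene *apa-2* (2.48, SE 0.14, q = 2.66e-07) and the dynamin gene *dyn-1* (1.96, SE 0.18, q = 1.18e-05). Among 26 endoplasmic reticulum chaperones and stress sensors, all 6 X-linked and 5 of 20 autosomal members rose, with 1 decrease. The X-linked rises included the protein disulfide isomerase gene *pdi-6* (2.08, SE 0.14), the PERK kinase gene *pek-1* (1.89, SE 0.26), *atf-6* (1.51, SE 0.25) and the BiP gene *hsp-3* (1.36, SE 0.24). The autosomal ones were *dnj-27* (0.83), *crt-1* for calreticulin (0.38), *enpl-1* for GRP94 (0.33), the second BiP gene *hsp-4* (0.27) and *pdi-3* (0.27), and the thiol oxidase gene *ero-1* fell by 0.29.

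**Figure D4:**
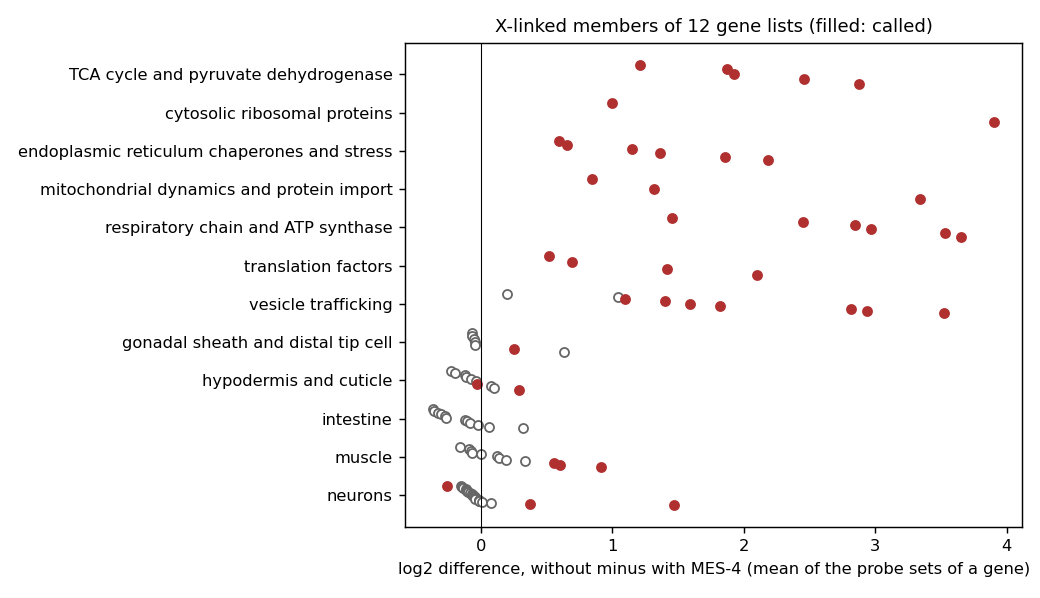
Log2 difference without minus with MES-4 for the X-linked members of 7 lists for metabolism, translation and secretion (top) and 5 lists of somatic cell types (bottom), 1 dot per gene, filled where the gene was called. In the upper lists 33 of 35 dots are filled and all lie above 0, and in the lower lists 7 of 65 were called higher and 2 lower with most dots near 0.

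Fewer X-linked genes of somatic cell types were called. Over 5 lists (muscle, intestine, neurons, hypodermis and cuticle, gonadal sheath and distal tip cell), 7 of 65 X-linked members rose (10.8%) and 2 fell, around a median of -0.06, and of 182 autosomal members 8 rose and 8 fell (4.40% each). The shares over all genes were 21.5% and 1.83% on the X and 3.67% and 6.28% on the autosomes. Their median level with MES-4 was 5.95 on the X, compared with 6.81 for the X-linked metabolic members, and the difference between both kinds of list was not tested. The largest rise among them was *unc-18*, the Munc18 gene of synaptic vesicle release (2.14, SE 0.36, q = 0.00152), which read 7.08 to 9.21 without MES-4 and 5.29 to 6.52 with it. Of 36 muscle genes 4 rose (11.1%), the integrin attachment genes *pat-6* on chromosome IV (0.74, SE 0.13) and *unc-97* on the X (0.50, SE 0.12) and the X-linked *act-4* (0.92, q = 0.0427) and *dim-1* (0.38, q = 0.0481). The calls of *pat-6* and *unc-97* were lost without a *lin-54* term and on *lin-54(n3423)* arrays alone, and those of *act-4* and *dim-1* when any 1 of 10 and any 1 of 9 arrays was left out. The intestinal regulator *elt-2*, which is X-linked, differed by -0.15 (q = 0.114). The median of each of the 5 lists overlapped between arrays with and without MES-4, for instance 6.09 to 6.87 and 6.12 to 6.65 for muscle and 6.30 to 7.24 and 6.09 to 7.91 for intestine.

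Some chromatin regulators on the X were among the genes that rose. The histone H3 lysine 27 demethylase gene *utx-1* read 6.20 to 7.34 on the arrays with MES-4 and 9.08, 10.08 and 10.56 in *mes-4* and 9.21, 10.46 and 9.93 in the double mutant. There was no overlap, and the difference was 3.09 (SE 0.26, q = 6.70e-06). The demethylase gene *lsd-1* rose by 1.42 (SE 0.31, q = 0.00814), although the double-mutant array at 7.16 lay within the range with MES-4. In a list of 19 histone methylation factors, 5 are X-linked and these 2 of the 5 rose, compared with 21.5% of all X-linked genes. No autosomal member rose and 2 fell, *mes-4* itself and *mes-2* (-0.32, SE 0.09, q = 0.0316). The call of *mes-2* was lost when any 1 of 7 arrays was left out. Of 8 DRM subunits, 1 was called, *lin-52*, which rose by 0.34 (SE 0.08, q = 0.0149).

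Some synthetic multivulva (synMuv) and HP1-class genes antagonize germline gene expression in the soma. Of 21 on the array, 5 of 6 X-linked members rose and 2 autosomal ones fell. The background for this list and the next was 21.5% rising on the X, and 3.67% rising and 6.28% falling on autosomes. By level with MES-4, X-linked rises were 36.1% in the third class and 71.8% in the highest. Both lists were chosen with earlier results of these data known. The X-linked *lin-15B* rose by 2.19 (SE 0.11, q = 8.38e-08), from 6.08 to 6.79 with MES-4 to 8.77 to 9.04 in *mes-4* and 8.02 to 8.58 in the double mutant. Its neighbor *lin-15A* rose by 1.87 (SE 0.13) and the sex determination gene *tra-4* by 1.59 (SE 0.23). The autosomal kinase gene *ark-1* fell by 0.86 (SE 0.10, q = 1.01e-04). In the list for dosage compensation and sex determination, 3 of 5 X-linked and 2 of 18 autosomal members rose and 1 fell. The rises included *sdc-1*, a regulator of dosage compensation (1.25, SE 0.18, q = 4.81e-04), and *xol-1*, the X-dose switch gene (0.54, SE 0.15, q = 0.029), whose call was lost when any 1 of 4 arrays was left out.

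Autosomal genes of germline processes were called in small numbers and with small differences. Over 7 lists of germline processes, 25 of 246 autosomal members fell (10.2%) and 9 rose, with a median of -0.05, the same as for all autosomal genes. The background was 6.28% over all autosomal genes and 12.4% in the highest class by level with MES-4, which holds their median level of 10.4, so the share is not a result about germline genes. All 7 X-linked members had positive differences and 6 were called, among them the P granule genes *meg-4* (1.26, SE 0.12, q = 1.70e-05) and *meg-2* (0.64, SE 0.15) and the Argonaute gene *alg-1* (0.75, SE 0.15). The X-linked member that was not called was *cdk-4* (0.33, q = 0.125).

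Of 24 genes of the synaptonemal complex and chromosome axis 3 fell and 0 rose (limma, 8 fell and 0 rose at an unadjusted p under 0.05, and 1 was called with the Benjamini-Hochberg adjustment). The axis gene *htp-1* fell by 0.28 (SE 0.05, q = 0.00307), from 11.61 to 11.76 with MES-4 to 11.49 to 11.55 in *mes-4* and 11.26 to 11.37 in the double mutant. The calls of *rec-8*, a meiotic cohesin (-0.27, q = 0.0495), and the pairing-center gene *zim-2* (-0.29, q = 0.0322) were lost when any 1 of 9 and any 1 of 7 arrays was left out. In meiotic recombination 3 of 28 fell, *xnd-1* (-0.27, q = 0.0209), the MSH4 homolog *him-14* (-0.52, q = 0.0329) and *him-5* (-0.32, q = 0.048), and their calls were lost without *lin-54* replicate 3 (*xnd-1*), any 1 of 7 arrays (*him-14*) and any 1 of 9 arrays (*him-5*). All of these calls were lost when arrays were centred on the autosomal median, except that of *htp-1*.

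In the other germline lists single members fell further. The endogenous RNA interference gene *eri-5* fell by 0.62 (SE 0.07, q = 6.05e-05) and the replication initiation gene *psf-2* by 0.59 (SE 0.09, q = 7.41e-04). The chromosomal passenger gene *csc-1* fell by 0.65 (SE 0.13, q = 0.00588) and the kinetochore gene *knl-3* by 0.49 (SE 0.10, q = 0.00505). The translational regulator *lin-41* fell by 0.43 (SE 0.10, q = 0.0144). For proteasome subunits, 33 genes that are all autosomal, 0 were called (limma, 0 with the Benjamini-Hochberg adjustment), and 3 had a lower level at an unadjusted p under 0.05.

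The largest autosomal decreases were picked from the calls with separate arrays in each *lin-54* genotype, so their presence in both genotypes was set by that choice. The gene Y55F3AM.11 on chromosome IV read 7.11 to 7.71 in wild type and 6.95 to 7.95 in *lin-54*, compared with 5.15 to 5.21 in *mes-4* and 4.35 to 4.90 in the double mutant, a difference of -2.52 (SE 0.18, q = 1.29e-06). The arrestin-domain gene *arrd-13* on chromosome II read 9.11, 8.83 and 9.24 in wild type and 9.51, 9.57 and 9.58 in *lin-54*. It read 7.11, 6.81 and 6.59 in *mes-4* and 7.29, 7.15 and 7.13 in the double mutant, so that the groups were more than 1 log2 unit apart, and it fell by 2.29 (SE 0.09, q = 6.96e-08). The gene *mig-14*, which encodes the Wnt secretion factor Wntless, fell by 1.98 (SE 0.31, q = 0.00108), with 6.64, 6.04 and 5.83 in *mes-4* and 7.55, 7.63 and 7.10 in the double mutant against 8.12 to 9.25 with MES-4. The gene *tcab-1*, the homolog of a telomerase Cajal body protein, fell by 1.95 (SE 0.09, q = 7.68e-08), from between 7.92 and 8.38 to between 6.06 and 6.58.

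The J-domain gene *dnj-26* read 7.21, 7.61 and 7.58 in *mes-4* but 5.71, 4.41 and 5.83 in the double mutant, and 8.20 to 8.89 with MES-4, a difference of -2.22 (SE 0.33, q = 6.20e-04). The other 5 of the 10 largest decreases were Y48G9A.7 (-2.28), T04D3.8 (-2.19), Y22D7AL.9 (-1.86), the F-box gene *fbxa-107* (-1.62) and Y48G9A.11 (-1.60). The 10 decreases kept their calls when any 1 array was left out. Y48G9A.7 and Y48G9A.11 are adjacent measured genes on chromosome III.

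Autosomal increases were fewer than X-linked ones among large changes. The largest were also picked from the calls with separate arrays in each *lin-54* genotype. The F-box gene *fbxa-65* on chromosome V rose by 2.60 (SE 0.29, q = 7.94e-05), from 5.19 to 5.27 in wild type and 4.08 to 4.93 in *lin-54* to 7.00, 8.48 and 8.71 in *mes-4* and 6.20, 7.38 and 7.13 in the double mutant. R06C1.4 on chromosome I rose by 2.53 (SE 0.46, q = 0.00254). Its differences were 1.31 with *lin-54(+)*, not called (limma, q = 0.118), and 3.75 with *lin-54(n3423)*. The interaction of R06C1.4 was not called (limma, q = 0.566). One *lin-54* array of R06C1.4 at 9.43 lay within the *mes-4* range of 9.05 to 9.48, so the 12 arrays overlapped although the 6 arrays of each *lin-54* genotype did not. The scramblase gene *scrm-4* rose by 1.76 (SE 0.24, q = 3.42e-04). Among 35 histone genes 4 rose, all autosomal, led by *his-41* (1.44, SE 0.17, q = 1.10e-04) and *his-37* (1.11, SE 0.20, q = 0.00213), which lie in the same run on chromosome V with C50F4.6. Histone genes are near-identical copies, and their probe sets can read several of them. The Argonaute gene *alg-2* rose by 1.07 (SE 0.16, q = 6.71e-04), beside its X-linked paralog *alg-1*.

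Decreases on the X were few and small. The largest of the 43 was C52B11.4, which fell by 0.66 (SE 0.10, q = 0.0011), from between 8.64 and 8.96 to between 7.74 and 8.47, without overlap. The next among those picked for separate arrays in each *lin-54* genotype were C17H11.4 (-0.36, SE 0.06), ZK899.3 (-0.31, SE 0.06) and F09A5.2 (-0.29, SE 0.07). Of the 43, 34 changed by less than 1.2-fold, and the count was 15 to 78 when single arrays were left out, being 78 without *mes-4* replicate 2 and 15 without *lin-54* replicate 3.

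Split by *lin-54* genotype, the comparison became a pair of contrasts that share no arrays. In *mes-4* compared with wild type 418 X-linked genes rose (17.7%) and 4 fell (0.17%), with 272 rises and 329 decreases on autosomes (1.85% and 2.23%). In the double mutant compared with *lin-54*, 211 X-linked genes rose (8.96%) and 6 fell (0.255%), with 94 rises and 189 decreases on autosomes (0.639% and 1.28%). All 506 X-linked genes called over 12 arrays had positive differences in each genotype, with a median of 1.07 with *lin-54(+)* and 0.76 with *lin-54(n3423)*. These genes were chosen by the average of both differences, so a like sign in both is partly set by that choice.

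Whether the effect of MES-4 differed between the *lin-54* genotypes was tested as the interaction, which called 6 genes (0.0351% of 17085), 0 of them on the X (limma, 0 with the Benjamini-Hochberg adjustment, and 198 X-linked genes at an unadjusted p under 0.05). The count was 1 with the replicate number as a block and 1 to 23 when single arrays were left out, 1 without *lin-54* replicate 1 and 23 without *mes-4* replicate 1. The smaller median with *lin-54(n3423)* was therefore not resolved for single X-linked genes. The 198 genes came from 2355 on the X, while the 14722 on autosomes gave 681 at that unadjusted p. Among the 506 X-linked rises 70 had such a p, and 347 differed by more with *lin-54(+)* than with *lin-54(n3423)*. The 541 autosomal rises gave 78 and 356. Whether the X as a whole responded less with *lin-54(n3423)* was not tested. Per array, the median level of the 506 X-linked rises was 6.67 to 6.94 in wild type, 6.15 to 6.60 in *lin-54*, 7.68 to 8.47 in *mes-4* and 7.10 to 7.66 in the double mutant.

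**Figure D5:**
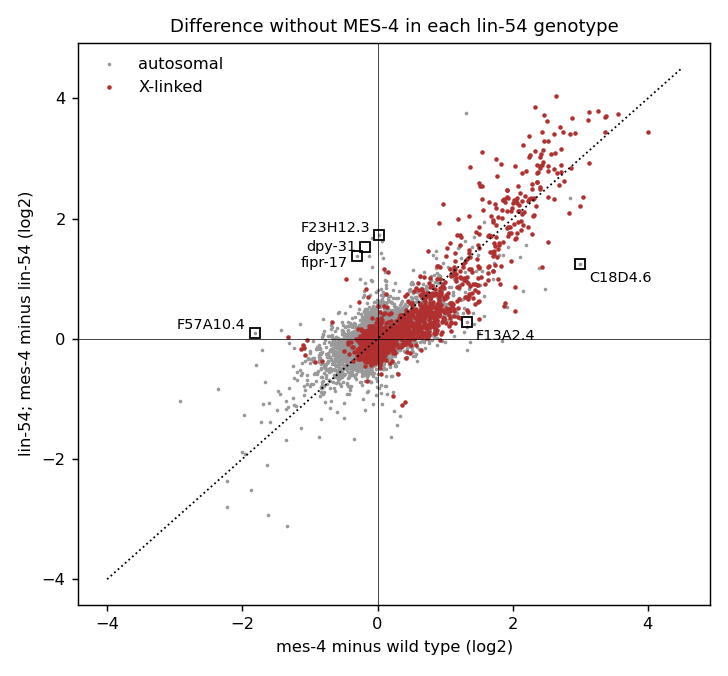
Each dot is 1 gene, X-linked in red and autosomal in gray, with the log2 difference of *mes-4* minus wild type on the horizontal axis and of the double mutant minus *lin-54* on the vertical axis. Equal differences fall on the dotted line, the X-linked dots stretch to the upper right, and open squares mark the 6 genes called for interaction, which are autosomal.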

How the data were processed

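The authors linearly amplified germline RNA once, labeled it with biotin and hybridized it to Affymetrix *C. elegans* arrays. Probe intensities went through the affy package (no version given), with quantiles equalized across replicates and summaries by RMA, the robust multichip average. Whether quantiles were also equalized across genotypes is not stated. The deposited values are normalized log2 levels per probe set, which were not normalized again. The number of arrays, 12, limits the precision.

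Of 22548 probe sets (77 controls apart), 20766 named 1 gene in the platform annotation, 887 several and 895 none. Matching to RefSeq gave 20701 probe sets for 17085 genes (2355 X-linked, 14722 autosomal, 8 mitochondrial). Gene order came from the RefSeq table, and 5785 probe sets are of a type shared between transcripts.

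An additive model (*mes-4* and *lin-54* terms) was fitted with limma 3.58.1 in R 4.3.3. Storey q was computed with lambda between 0 and 0.9 (step 0.05) and a spline of 3 degrees of freedom. Each gene was represented by the probe set of smallest p and was called at q at or below 0.05, while list medians and levels used the mean of its probe sets. Contrasts within *lin-54* genotypes and the interaction came from a model with 1 mean per genotype. The fit was tested on simulated data. The fit has no replicate block.

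Named genes were *mes-4* and *lin-54*, the largest called changes without overlap within either *lin-54* genotype (10 and 4 X-linked rises and decreases, 8 and 10 autosomal), up to 4 members of each of 32 lists by p, and the interaction genes. Other list members and genes of runs were named after their values were seen. The members and lists were chosen with earlier results of these data known. Alternatives were other adjustments, models, probe-set rules and centring, and leaving out each array. Each *lin-54* genotype alone and an MSP covariate were added after seeing the data. Sequences were not used here, and coordinates served only to order genes along their chromosomes.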

Additional observations from a re-analysis of the deposited data

Results flagged for a closer look

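For 6 genes the effect of *mes-4* differed between the *lin-54* genotypes by the interaction test (limma, q at or below 0.05), a count that was 1 with the replicate number as a block and 1 to 23 when single arrays were left out. Each value is the log2 difference without minus with MES-4 in *lin-54(n3423)* germlines minus the same in *lin-54(+)* germlines.

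F57A10.4 on chromosome V had an interaction of 1.92 (SE 0.14, q = 5.08e-04). It read 9.42, 9.68 and 9.45 in wild type and 7.63, 7.82 and 7.64 in *mes-4*, a difference of -1.82, and 10.32, 10.29 and 10.06 in *lin-54* and 10.25, 10.35 and 10.38 in the double mutant, a difference of 0.10. F13A2.4 (-1.04, q = 0.0318) and C18D4.6 (-1.75, q = 0.0318), both on V, rose by 1.32 and 3.00 with *lin-54(+)*, compared with differences of 0.28 and 1.25 with *lin-54(n3423)*. F23H12.3 on V (1.70, q = 0.0318), *fipr-17* on III (1.68, q = 0.0318) and the zinc metalloprotease gene *dpy-31* on III (1.71, q = 0.0349) had differences of 0.02, -0.30 and -0.18 with *lin-54(+)* and 1.72, 1.37 and 1.53 with *lin-54(n3423)*. In *fipr-17* the 3 double-mutant arrays at 9.65, 10.09 and 10.13 were the highest of the 12. Of the 6 genes, 4 lie on chromosome V, which holds 4317 of the 17085 measured genes and also *mes-4*. Their distance from *mes-4* was not examined.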

How the results depend on the processing

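The count of X-linked rises was 506 and stayed within 1.5 times under all alternatives over 12 arrays except without a *lin-54* term (282), and leaving out single arrays gave 419 to 548. It was 165 on *lin-54(n3423)* arrays only. Autosomal decreases (925) numbered 435 with arrays centred on the autosomal median, 408 without a *lin-54* term, 297 on *lin-54(+)* arrays only and 102 on *lin-54(n3423)* arrays only, and leaving out single arrays gave 606 (without *mes-4* replicate 3) to 1030. Autosomal rises (541) numbered 349 without shared probe sets, 190 without a *lin-54* term, 252 and 54 on *lin-54(+)* and *lin-54(n3423)* arrays only, and 378 to 630 leaving out arrays. X-linked decreases (43) numbered 12 when centred, 20 with Benjamini-Hochberg, 25 among probe sets above the median level, 8 without a *lin-54* term, 2 and 1 in the single *lin-54* genotypes, and 15 to 78 leaving out arrays. Fits on 6 arrays have fewer samples. The interaction count (6) was 1 to 23 leaving out arrays, 23 without *mes-4* replicate 1. The shift of the X median minus the autosomal median (0.0815) was 0.0898 with *lin-54(+)* and 0.0732 with *lin-54(n3423)*. There the exact p of 0.1 is the smallest that 3 against 3 arrays can give. Leaving out arrays gave 0.0761 to 0.0858 for this shift. For the other moved values the cause was not tested.

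Arrays with the same replicate number correlated at 0.0738 to 0.324 in their deviations over 6 pairs across *mes-4* status within a *lin-54* genotype. In these comparisons 11 of 12 arrays correlated best with their own number. Over all 18 same-numbered pairs the correlations ran from -0.0672 to 0.430. According to the study's methods the genotypes were handled in parallel, but no matching of replicate numbers is stated. With the replicate number as a block the counts were 515, 48, 597 and 1150 (rises and decreases on the X, then on autosomes), and the interaction called 1 gene. The shift of the X median minus the autosomal median stayed at 0.0815 (exact p = 0.03125).

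Of 4180 values for 163 named genes under the alternatives, 3718 kept direction and side of the threshold, 398 no longer passed it, 57 newly passed it and 7 reversed. The reversed values were 0.31 (*lin-54(+)* arrays only) and 0.20 (probe sets above the median level) for *ajm-1*, -0.0118 for *dlg-1* and -0.13 for *unc-44* (without shared probe sets), -0.28 for *eps-8* (*lin-54(n3423)* arrays only), 0.0370 for *gld-2* (above the median level) and -0.000219 for *unc-11* (mean of probe sets). Only log2 levels were used, so signal over background was not measured.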

Other observations

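Replicates of one genotype differed in how high the X-linked rises read. Among the 506 X-linked genes that rose, *mes-4* replicate 1 was the lowest of its 3 arrays for 399 genes and double-mutant replicate 1 the lowest of its 3 for 330, and both were lowest for all 10 of the largest rises. In wild type and *lin-54* the lowest array was replicate 3, for 306 and 318 of the same genes. The median level of the 506 genes was 7.68, 8.02 and 8.47 in the *mes-4* replicates and 7.10, 7.66 and 7.24 in the double mutant.

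Nuclear hormone receptor genes, a large family of transcription factors with 254 members on the array, gave 21 rises (8.27%) and 10 decreases (3.94%), compared with 6.13% and 5.67% of all genes. Of the 23 X-linked members 6 rose, among them *nhr-48* (0.85, SE 0.10, q = 1.79e-04) and *nhr-3* (1.45, SE 0.23, q = 9.90e-04, and 0.87 averaged over its probe sets). In *nhr-3* the *mes-4* arrays read 6.33, 7.00 and 6.85 and the double-mutant arrays 5.14, 5.64 and 4.89, compared with 4.12 to 4.82 with MES-4. Of 82 homeobox genes 9 rose and 1 fell, *ceh-91* on chromosome III (-0.90, SE 0.15, q = 0.00124). The rises included 5 of the 23 X-linked homeobox genes. The background for both families was 21.5% rising among all X-linked genes and 3.67% among all autosomal genes. Whether either family departed from that background was not tested.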
